A study of Mus musculus with 12 samples.

Results

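The genes of the ubiquitin-proteasome system were examined in murine small intestine at 0 h (fed), 12 h, 24 h and 72 h of fasting. Members were chosen by name: named probes of the Agilent mouse array whose gene symbol starts with Psm and a subunit letter and number (proteasome), Ube1 to Ube4 (activating, conjugating and some ligating enzymes), Usp or Uchl (deubiquitinating enzymes), Fbxl, Fbxo or Fbxw (F-box proteins) or Cul (cullins). This gave 120 probes of 89 genes, out of 20280 named probes of 18116 genes, namely 40 proteasome probes of 34 genes and 80 enzyme probes of 55 genes. The enzyme probes comprised 28 for activating and conjugating enzymes, 34 for ligases and 18 for deubiquitinating enzymes. All 89 genes matched a mouse gene of RefSeq (GRCm38.p6) by gene number, and 8 have another symbol today, among them Ube1c (now Uba3), Ube1x (now Uba1) and Fbxo18 (now Fbh1). Psmc3ip, which the rule includes with 2 probes, encodes a meiotic recombination factor named for its interaction with a subunit and is not itself a proteasome subunit, so counts are also given without it.

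The animals were male FVB mice, 6 weeks old, and the whole thickness of the small intestine was taken. Each of the 12 arrays carried the pooled RNA of 2 mice in Cy3 (n = 3 pools per time point, fed mice being the control at 0 h) and a Cy5-labelled reference made from the 6 fed mice. Dyes were not swapped. The source of the reference of fed replicate 3 names only the mice of its own pool, whereas the other 11 arrays name all of the fed mice. Values are log2(Cy3/Cy5), that is, the level in a pool over the reference. A change is the difference between the means of 3 pools, unless a lower number is given, with its standard error (SE). P-values are from limma, adjusted by Benjamini-Hochberg over all probes, and "called", "rose" or "fell" is used of values with an adjusted p under 0.05. They measure the spread between the pools of a time point. This spread is estimated from all 12 arrays, so 72 h against fed also draws on the 12 h and 24 h arrays. In whole tissue, fewer cells of a type and less RNA per cell cannot be told apart.

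The proteasome degrades proteins that carry chains of ubiquitin. Its barrel, the 20S core, is built of rings of alpha subunits (Psma) around rings of beta subunits (Psmb) that hold the proteolytic sites, and the 19S regulator, with ATPases (Psmc) and non-ATPase subunits (Psmd), binds, unfolds and feeds in the substrate. Ubiquitin is activated by an E1 enzyme, passed to an E2 enzyme and attached to the substrate by an E3 ligase. Many ligases are assembled on a cullin, with an F-box or other receptor protein that picks the substrate, and deubiquitinating enzymes remove or trim the chains. Interferon-inducible beta subunits (Psmb8, Psmb10) replace constitutive ones in the immunoproteasome, and Psme1 and Psme2 form the 11S activator. In muscle, fasting is known to raise several genes of this system, including Fbxo32 and proteasome subunits.

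The arrays were deposited in a pair of file formats with different signal ranges. Fed and 72 h arrays share the one, 12 h and 24 h arrays the other. The comparison of 72 h with fed therefore lies within a format, as does that of 24 h with 12 h, whereas 12 h or 24 h against fed cannot be told apart from it. The spread behind every p-value nevertheless comes from the arrays of both formats. The reference channel was tested in the same way as a control. Of all probes, 21.7% differed in Cy5 between 12 h and fed, 20.6% between 24 h and fed and 0% between 72 h and fed. Among the proteasome probes, 10 of 40 differed in Cy5 at 12 h, 3 at 24 h and 0 at 72 h (1 at an unadjusted p under 0.05, limma). The median Cy5 signal of an array was 1.65 to 2.11 times its background and that of Cy3 3.35 to 6 times. Of the members, 95 probes were well above background on every array. The markers of small-intestinal epithelium were well above background at every time point (7 genes, summed Cy3 signal 106600 to 153000), as were 8 smooth-muscle genes at a lower summed signal (6099 to 10360). Of the smooth-muscle genes, 5 of 8 were higher than fed at 12 h (median 1.51), 3 at 24 h (0.73) and 2 at 72 h (0.15). From 12 h to 72 h, 5 were lower. Their summed Cy3 signal overlapped with fed (6099 to 8361) at 12 h (7330 to 10360), 24 h (7740 to 9197) and 72 h (8023 to 8485). Over all probes, 4.82% were higher than fed at 12 h, 3.82% at 24 h and 4.85% at 72 h. From 12 h to 72 h, 4.75% were lower. The part of smooth muscle in the values of the members was not tested.

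After 72 h of fasting, the proteasome genes that changed were nearly all lower than in the fed intestine. Against fed, 13 of 40 proteasome probes (13 genes) were lower and 1 was higher, while over all probes 5.71% were lower and 4.85% higher. The median change was -0.32 (log2) over the proteasome probes and 0.01 over all 20280. Without Psmc3ip, 13 of 38 probes were lower and the median was the same. Of the enzyme probes, 9 of 80 were lower and 4 higher, with a median of -0.06. The median of the proteasome was thus 0.26 below that of the enzymes. On single arrays this difference was 0.19, 0.14 and -0.18 in the fed pools. At 72 h it was -0.21, -0.12 and -0.18, so fed replicate 3 overlapped with the 72 h pools. In the Cy3 channel alone, 8 of 40 proteasome probes were lower and 2 higher, and 5 of 80 enzyme probes were lower and 4 higher, against 4.27% lower and 4.17% higher of all probes.

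Counts were sensitive to single arrays. At 72 h against fed, 4 proteasome probes were called without 72 h replicate 1, 8 without fed replicate 1, 9 without fed replicate 3 and 9 without 72 h replicate 3. Those called without 72 h replicate 3 included 1 higher probe, and the others were all lower. Of the 24 named genes called at 72 h against fed, 8 were called under every other setting of the processing and without each array in turn. They were Psma6, Psma7, Psme2, Ube1c, Ube2a, Ube2n, Fbxo18 and Usp18, each by its brightest probe. The other probes of Psma7 and Ube2n were not called, and that of Ube1c was called in the opposite direction.

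**Figure D1:**
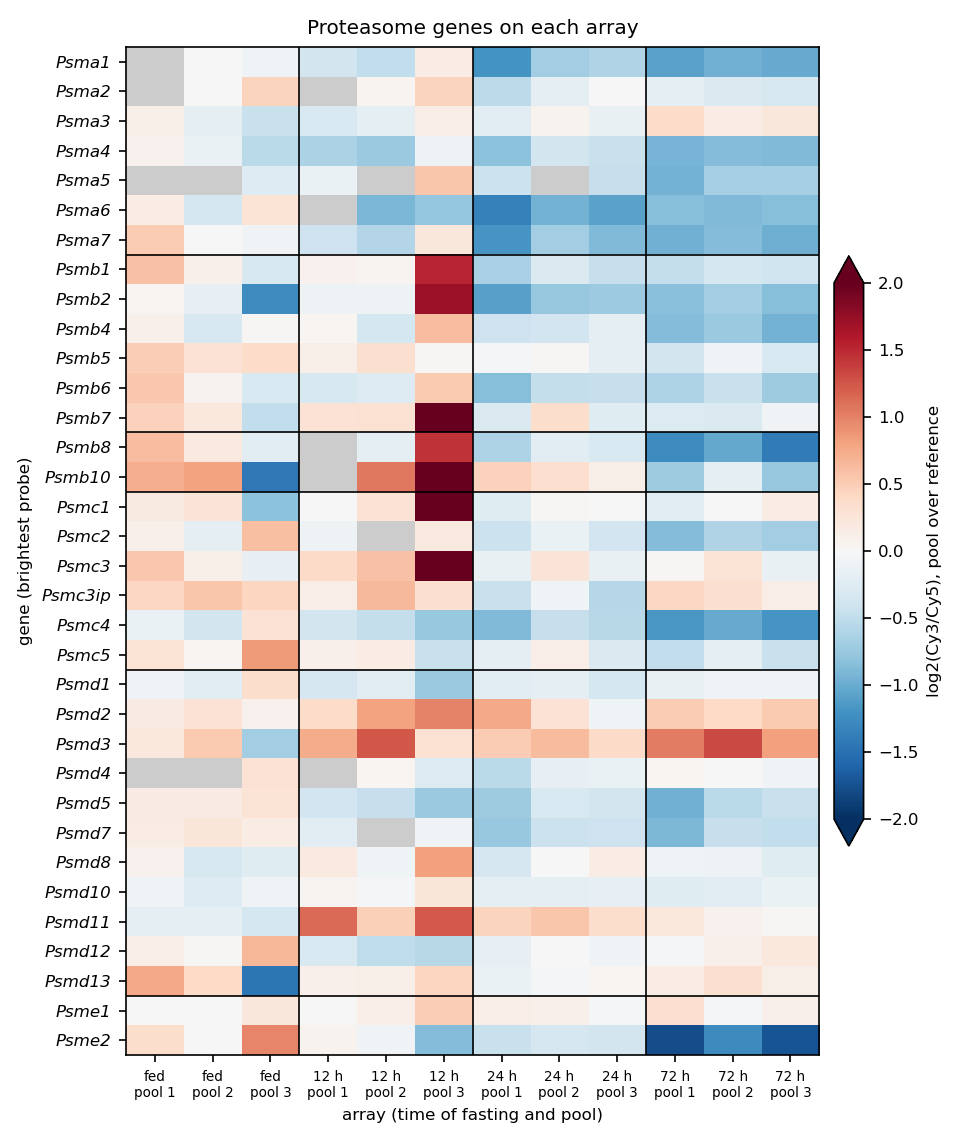
Heat map of log2(Cy3/Cy5) for the brightest probe of each proteasome gene (lines) on each of the 12 arrays (columns, 3 pools per time point), with blue below and red above the reference and grey for a missing value. Horizontal lines part the 20S alpha, constitutive beta, immunoproteasome, 19S ATPase, 19S non-ATPase and activator genes. Blue prevails in the 20S lines at 24 h and 72 h, and pool 3 of 12 h is red at many of them.

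The 20S core held 7 of the 13 lower probes. Of its 17 probes (15 genes), 7 were lower and 0 higher at 72 h against fed, with a median of -0.59. The shares of all probes were 5.71% lower and 4.85% higher. The median of the 17 probes was 0.47, 0.03 and -0.25 in the fed pools, -0.10, -0.14 and 0.52 at 12 h, -0.58, -0.33 and -0.31 at 24 h, then -0.71, -0.45 and -0.71 at 72 h. All pools of 24 h and of 72 h thus lay below all fed pools, whereas the 12 h pools overlapped with the fed ones. The median of the 19S regulator (19 probes without Psmc3ip) changed less, by -0.11 at 72 h, and 5 of its probes were lower and 1 higher. Its parts differed, with a median of -0.76 over the 5 ATPase probes and of -0.07 over the 14 non-ATPase probes. These medians are descriptions, since the members share arrays and were not tested as a set.

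Promoters of 4 core genes are shown because 7 of the 17 core probes were lower at 72 h. Of the 4 genes, Psmb5 and Psma1 were lower, Psma7 was lower by 1 of its 2 probes, and Psmb6 was not called. The sequences are the 250 bases before the start of the gene in RefSeq (GRCm38.p6), read 5′ to 3′ on the strand of the gene. The first pair was chosen for the core of the antioxidant response element (TGACNNNGC, the site of Nrf1 and Nrf2) and the other pair for the CCAAT box (CCAAT, the site of NF-Y). Both motifs were searched on either strand, and matches are in capitals. Psmb5 lies at chr14:54617996-54618245 (minus strand), Psmb6 at chr11:70525107-70525356 (plus), Psma1 at chr7:114276117-114276366 (minus) and Psma7 at chr2:180042465-180042714 (minus).

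Psmb5: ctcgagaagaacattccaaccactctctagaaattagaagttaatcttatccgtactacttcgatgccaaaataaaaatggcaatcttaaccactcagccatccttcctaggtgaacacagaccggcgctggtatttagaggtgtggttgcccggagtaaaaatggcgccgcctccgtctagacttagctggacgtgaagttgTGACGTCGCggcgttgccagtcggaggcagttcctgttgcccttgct
Psmb6: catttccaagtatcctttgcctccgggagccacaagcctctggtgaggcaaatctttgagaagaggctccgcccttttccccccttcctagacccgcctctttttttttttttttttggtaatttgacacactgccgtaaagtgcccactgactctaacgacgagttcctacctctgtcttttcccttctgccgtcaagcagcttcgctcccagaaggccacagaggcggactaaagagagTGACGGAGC
Psma1: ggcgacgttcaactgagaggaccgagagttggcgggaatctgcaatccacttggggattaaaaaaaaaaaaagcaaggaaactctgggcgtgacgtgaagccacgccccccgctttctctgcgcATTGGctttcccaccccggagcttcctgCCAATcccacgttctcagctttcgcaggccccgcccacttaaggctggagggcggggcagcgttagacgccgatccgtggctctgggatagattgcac
Psma7: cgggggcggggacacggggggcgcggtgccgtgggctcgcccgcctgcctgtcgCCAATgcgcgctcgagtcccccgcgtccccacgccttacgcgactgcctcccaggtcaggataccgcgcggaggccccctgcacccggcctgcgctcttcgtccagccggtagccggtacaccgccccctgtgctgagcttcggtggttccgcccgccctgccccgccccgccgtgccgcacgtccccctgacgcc

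Of the 89 genes, 67 had such a window. The antioxidant response core was found in 3 of 27 proteasome genes without Psmc3ip (11.1%, namely Psmb5, Psmb6 and Psmd12), in 8 of 39 enzyme genes (20.5%) and in 11.5% of all 27025 genes with a window. The CCAAT box was found in 9 of the 27 (33.3%), in 25.6% of the enzyme genes and in 37.5% of all genes with a window. Of the 12 proteasome genes lower at 72 h that had a window, 1 held the antioxidant response core and 4 the CCAAT box. The interferon-stimulated response element (GAAA, NN and again GAAA, either strand) was in 1 of the 27 and in 0 of those 12, against 3.46% of all genes with a window. The motifs were chosen with the values known, and a match is a description of the letters only.

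Of the alpha subunits, which form the gate of the barrel, 4 of 9 probes fell at 72 h, against 5.71% of all probes. Psma6 was 0.15, -0.35 and 0.27 in the fed pools, -0.91 and -0.78 at 12 h (n = 2), -1.36, -0.95 and -1.07 at 24 h, then -0.86, -0.89 and -0.85 at 72 h. Every fasted pool lay below every fed pool. The change was -0.87 ± 0.20 (SE) at 12 h (adjusted p = 0.0211) and -1.15 ± 0.18 at 24 h (adjusted p = 0.00357). At 72 h it was -0.88 ± 0.18 (adjusted p = 0.00777), a fall of 1.85-fold. The 12 h call was lost in Cy3 alone (-0.30).

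The brighter probe of Psma7 (A_65_P07203) was 0.51, -0.01 and -0.07 in the fed pools, -0.42, -0.59 and 0.22 at 12 h, -1.18, -0.69 and -0.88 at 24 h, then -0.96, -0.87 and -0.97 at 72 h. The 24 h and 72 h pools lay clear of the fed pools, at -1.06 ± 0.22 (adjusted p = 0.0117) and -1.08 ± 0.22 (adjusted p = 0.00655). The other probe of Psma7 (A_65_P02756) did not follow, with 0.27 ± 0.19 at 72 h (adjusted p = 0.401), and was higher at 72 h than at 12 h (0.79, adjusted p = 0.0156). The probes of this gene therefore disagree, and which of them reports its mRNA was not tested.

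Psma1 was -0.01 and -0.09 in 2 fed pools, -0.37, -0.49 and 0.14 at 12 h, -1.20, -0.70 and -0.60 at 24 h, then -1.07, -0.97 and -1.01 at 72 h. It was lower at 24 h (-0.78 ± 0.22, adjusted p = 0.0418) and at 72 h (-0.97 ± 0.22, adjusted p = 0.0142), with no overlap between these pools and the fed ones. Psma4 was lower at 72 h (-0.70 ± 0.21, adjusted p = 0.0434). This call was kept under 4 of 11 other settings of the processing and without 5 of the 12 arrays in turn. Cy3 alone was among the settings that lost it. Psma2 (-0.49, n = 2 in fed) and a probe of Psma5 (-0.22) did not pass the test. The brighter probe of Psma5 was measured in 1 fed pool, with a value of -0.50 at 72 h that rests on it, and Psma3 had a positive value (0.42 ± 0.18, adjusted p = 0.155).

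Of the 6 constitutive beta subunits, 2 were lower at 72 h, against 5.71% of all probes. Psmb5, which holds the chymotrypsin-like site, was 0.49, 0.28 and 0.37 in the fed pools, 0.11, 0.33 and 0.02 at 12 h, -0.02, 0.03 and -0.20 at 24 h, then -0.37, -0.07 and -0.31 at 72 h. All 72 h pools were below all fed pools and the change was -0.63 ± 0.15 (adjusted p = 0.0174). Psmb4, a structural subunit, fell by 0.78 ± 0.21 (log2, adjusted p = 0.0306). Psmb6, with the caspase-like site, had a value of the same size that missed the threshold (-0.69 ± 0.24, adjusted p = 0.0869), and Psmb7, with the trypsin-like site, was at -0.27 ± 0.40. Psmb1 (-0.52) and Psmb2 (-0.33) were also below 0 without passing the test.

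Of the members called at 72 h, the largest fall was in an interferon-inducible gene. Psme2, the beta subunit of the 11S activator, was 0.35, 0.01 and 0.98 in the fed pools, 0.07, -0.07 and -0.86 at 12 h, -0.44, -0.34 and -0.37 at 24 h, then -1.77, -1.28 and -1.72 at 72 h. The 72 h pools lay below those of every other time point. The change was -2.03 ± 0.26 against fed (4.10-fold lower, adjusted p = 0.000437), -1.30 ± 0.26 against 12 h (adjusted p = 0.00779) and -1.20 ± 0.26 against 24 h (adjusted p = 0.0116). Its partner Psme1, whose probe was not well above background on any fed array, was at 0.06 ± 0.17.

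Psmb8, the immunoproteasome counterpart of Psmb5, was 0.62, 0.19 and -0.23 in the fed pools, -0.18 and 1.45 at 12 h (n = 2), -0.61, -0.21 and -0.31 at 24 h, then -1.26, -1.02 and -1.39 at 72 h. It was lower at 72 h than in fed intestine (-1.41 ± 0.33, 2.66-fold, adjusted p = 0.0154) and than at 12 h (-1.85 ± 0.37, adjusted p = 0.00814, or -1.04 without 12 h replicate 3). Psmb10, the counterpart of Psmb7, was 0.72, 0.80 and -1.43 in the fed pools, 1.05 and 3.52 at 12 h, 0.46, 0.34 and 0.12 at 24 h, then -0.71, -0.20 and -0.76 at 72 h. Fed replicate 3 and 12 h replicate 3 stood far from the other pools of their groups for this gene. The 72 h value of Psmb10 against fed did not pass the test (-0.59 ± 0.58, adjusted p = 0.579).

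Some other interferon-regulated and antigen-processing genes were also lower at 72 h. The ubiquitin-like protein Isg15 fell by 1.64 (log2, adjusted p = 0.000309), the peptide transporter Tap1 by 0.98 (adjusted p = 0.0357), H2-T23 by 0.97 (adjusted p = 0.0160) and beta-2-microglobulin, B2m, by 1.56 (adjusted p = 0.000717). The last 3 are the called members of a list of 8 antigen-processing partners, of which 0 rose. Over all probes, 5.71% were lower and 4.85% higher at 72 h. Usp18, which removes Isg15 from proteins, is described below with its family. Markers of other cells were also read. Of 4 B and plasma cell markers, 3 were lower at 72 h, and their summed Cy3 signal was 2654 to 4191 in the fed pools and 652 to 757 at 72 h, with none of the 4 at background. Of 4 other leukocyte markers, 1 was lower (Ptprc, the common leukocyte antigen, -0.69, adjusted p = 0.0457), and their summed signal overlapped (10140 to 42060 fed, 11240 to 13980 at 72 h). In limma, 0 of 3 T cell markers passed the test (summed signal 663 to 679 fed, 499 to 580 at 72 h). The part of these cells in the values of Psme2, Psmb8 and Usp18 was not tested.

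Of the 5 members that are true ATPases of the 19S base, 3 were lower at 72 h, against 5.71% of all probes. Psmc4 was -0.14, -0.36 and 0.29 in the fed pools, -0.37, -0.48 and -0.77 at 12 h, -0.88, -0.47 and -0.55 at 24 h, then -1.17, -1.01 and -1.18 at 72 h. The 72 h pools lay below every fed pool, with a change of -1.05 ± 0.19 (2.07-fold, adjusted p = 0.00310). Psmc2 (-0.88 ± 0.20, adjusted p = 0.0136) and Psmc5 (-0.76 ± 0.22, adjusted p = 0.0433) were also lower, while Psmc1 (0.10) and Psmc3 (-0.11) were near 0. The call of Psmc5 was kept under 5 of 11 other settings of the processing and without 4 of the 12 arrays in turn. In Cy3 alone, Psmc2, Psmc4 and Psmc5 missed the threshold at 72 h (adjusted p = 0.0890, 0.115 and 0.0844), with a median over the 5 genes of -0.72 against -0.76 in the log ratio. Psmc3ip was lower at 24 h than in fed intestine (-0.83 ± 0.18, adjusted p = 0.0127) and than at 12 h (-0.74 ± 0.18, adjusted p = 0.0390) by its brighter probe, and its other probe was at -0.01 ± 0.34 at 24 h against fed and at 0.54 against 12 h, not called.

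Among the non-ATPase subunits, 2 of 14 probes were lower and 1 higher at 72 h, against 5.71% and 4.85% of all probes. Psmd5, an assembly chaperone of the base, was 0.16, 0.16 and 0.27 in the fed pools, -0.39, -0.46 and -0.74 at 12 h, -0.70, -0.30 and -0.36 at 24 h, then -0.96, -0.54 and -0.45 at 72 h. Every fasted pool was below every fed pool, and the gene was called at 12 h (-0.73), 24 h (-0.65) and 72 h (-0.84 ± 0.18, adjusted p = 0.00762). Its 12 h call was lost in Cy3 alone (-0.36). Psmd7, a scaffold of the lid, was lower at 24 h (-0.71 ± 0.17, adjusted p = 0.0209) and 72 h (-0.79 ± 0.17, adjusted p = 0.00928). The lid deubiquitinase Psmd14, named Poh1-pending on the array and hence not among the members, fell by 0.78 at 72 h (adjusted p = 0.00822).

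Psmd3 and Psmd11, both of the lid, gave the rises. A probe of Psmd3 (A_65_P18405) was 0.21, 0.53 and -0.69 in the fed pools and 1.02, 1.32 and 0.82 at 72 h (1.04 ± 0.28, adjusted p = 0.0314). Without fed replicate 3 the rise was 0.68 and no longer called. The other probe (A_65_P00772) was at -0.11 ± 0.16 at 72 h and was lower at 24 h (-0.75 ± 0.16, adjusted p = 0.0123), so the probes of Psmd3 disagree as well. Psmd11 was -0.19, -0.19 and -0.34 in the fed pools, 1.13, 0.47 and 1.23 at 12 h, 0.44, 0.55 and 0.35 at 24 h, then 0.21, 0.09 and 0.02 at 72 h. The gene rose by 1.18 ± 0.19 at 12 h (adjusted p = 0.00398) and by 0.69 ± 0.19 at 24 h (adjusted p = 0.0330), and was at 0.35 ± 0.19 at 72 h (adjusted p = 0.265). At 12 h the Cy3 signal of Psmd11 changed by 0.15 and the Cy5 reference by -1.04, so that the ratio rested on the reference. At 24 h Cy3 changed by 0.71 and Cy5 by 0.02. The remaining genes, Psmd1, Psmd2, Psmd4, Psmd8, Psmd10, Psmd12 and Psmd13, lay between -0.31 (Psmd4, measured in 1 fed pool) and 0.29 (Psmd13) at 72 h and none was called.

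**Figure D2:**
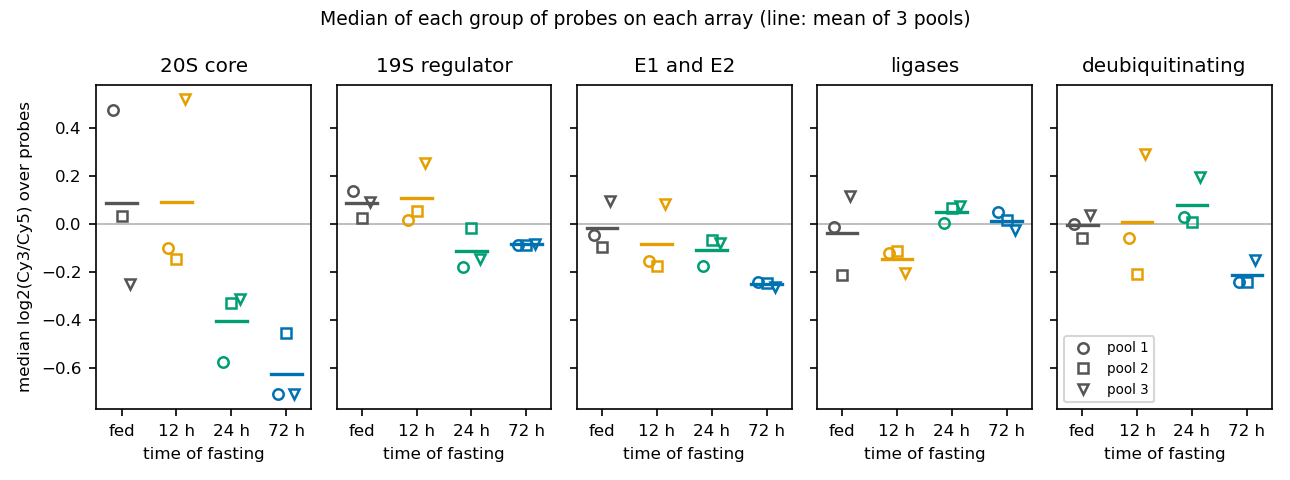
Median log2(Cy3/Cy5) over the probes of the 20S core, the 19S regulator, the activating and conjugating enzymes, the ligases and the deubiquitinating enzymes (panels) on each array, by time of fasting; circle, square and triangle are pools 1, 2 and 3, and the line is the mean of the 3 pools. The 20S core medians of all 24 h and 72 h pools lie below those of the fed pools, whereas those of the ligases stay between -0.21 and 0.12.

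At 24 h the median of the proteasome probes was below that of the enzyme probes. Of 40 proteasome probes, 7 were lower and 1 higher, with a median of -0.34, whereas 5 of 80 enzyme probes were lower and 2 higher, with a median of 0.06. Over all probes, 6.3% were lower and 3.82% higher. In Cy3 alone the medians were -0.28 for the proteasome and -0.21 for the enzymes, and the difference between them shrank from -0.40 to -0.07. The genes lower at 24 h were Psma1, Psma6, Psma7, Psmd3, Psmd5, Psmd7 and Psmc3ip. Leaving out an array gave 2 to 13 called proteasome probes at 24 h, with 2 without fed replicate 1, 3 without 24 h replicate 1, 4 without fed replicate 3, 5 without fed replicate 2 or 24 h replicate 3, and 13 without 12 h replicate 3.

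At 12 h, 2 proteasome probes were higher than fed (Psmb10 and Psmd11) and 3 lower (Psma6, Psmd5 and Psmd12), with a median of 0.03. Over all probes, 4.82% were higher and 6% lower. Of the enzyme probes, 2 were higher and 9 lower, with a median of -0.03. None of these 16 calls was also made in Cy3 alone, where limma called 2 proteasome and 5 enzyme probes in all, and for 14 of the 16 the reference channel changed more than the pools' channel. At 24 h this held for 2 of 15 called members and at 72 h for 1 of 27. A limma fit without the 24 h and 72 h arrays called 0 members (8 proteasome and 26 enzyme probes at an unadjusted p under 0.05).

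**Figure D3:**
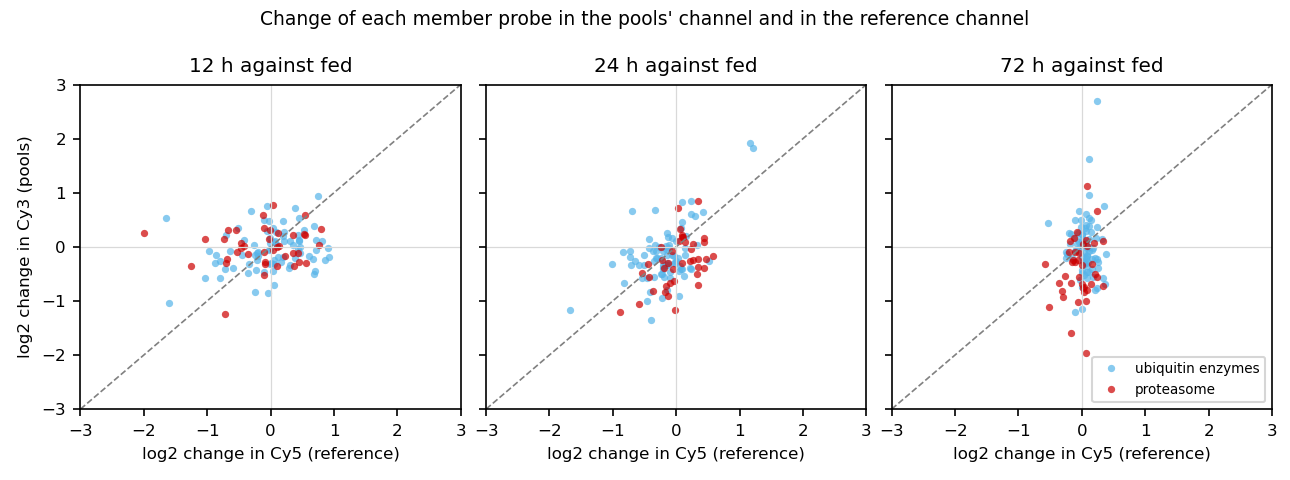
Change of each member probe (120 points per panel, proteasome in red, enzymes in blue) in the Cy3 channel of the pools (vertical axis, log2) against its change in the Cy5 reference (horizontal axis, log2) at 12 h, 24 h and 72 h against fed, with the line of equal change dashed. The points spread along the reference axis at 12 h and gather at 0 on it at 72 h.

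Replicate 3 of 12 h stood apart for the proteasome. Of the 31 proteasome probes measured in all 3 of the 12 h pools, it gave the highest value at 20. Psmb7 was 2.20 in this pool against 0.28 and 0.31 in the others, Psmc3 2.05 against 0.38 and 0.59, and Psmc1 2.01 against 0.02 and 0.30. Conversely, fed replicate 3 was the lowest fed pool at 20 of 36 proteasome probes, with Psmd13 at -1.44 against 0.75 and 0.40, and Psmb2 at -1.26 against 0.04 and -0.17. The median range between the 3 pools was 0.60 in fed, 0.76 at 12 h, 0.36 at 24 h and 0.21 at 72 h. When both of these arrays were left out, a choice made after the values were seen, 16 proteasome probes were called at 24 h against fed (15 lower) and 19 at 72 h (18 lower).

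Between the fasted time points, few proteasome probes differed at 24 h from 12 h, where 1 was lower and 0 higher (16 at an unadjusted p under 0.05, limma) and the 1 was Psmc3ip. Over all probes, 1.67% were lower and 1.23% higher. The median change of the proteasome probes was nevertheless -0.37, and that of the enzymes 0.07. Against 12 h, 8 proteasome probes were lower at 72 h and 1 higher (4.75% and 5.82% of all probes). The lower ones were Psma1, Psma5, Psmb4, Psmb8, Psmb10, Psmc2, Psmd11 (0.13 in Cy3 alone) and Psme2. From 24 h to 72 h, 1 was lower (Psme2) and 2 higher (Psmd3 and Psmc3ip), against 4.67% lower and 5.88% higher of all probes, with a median of -0.03.

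**Figure D4:**
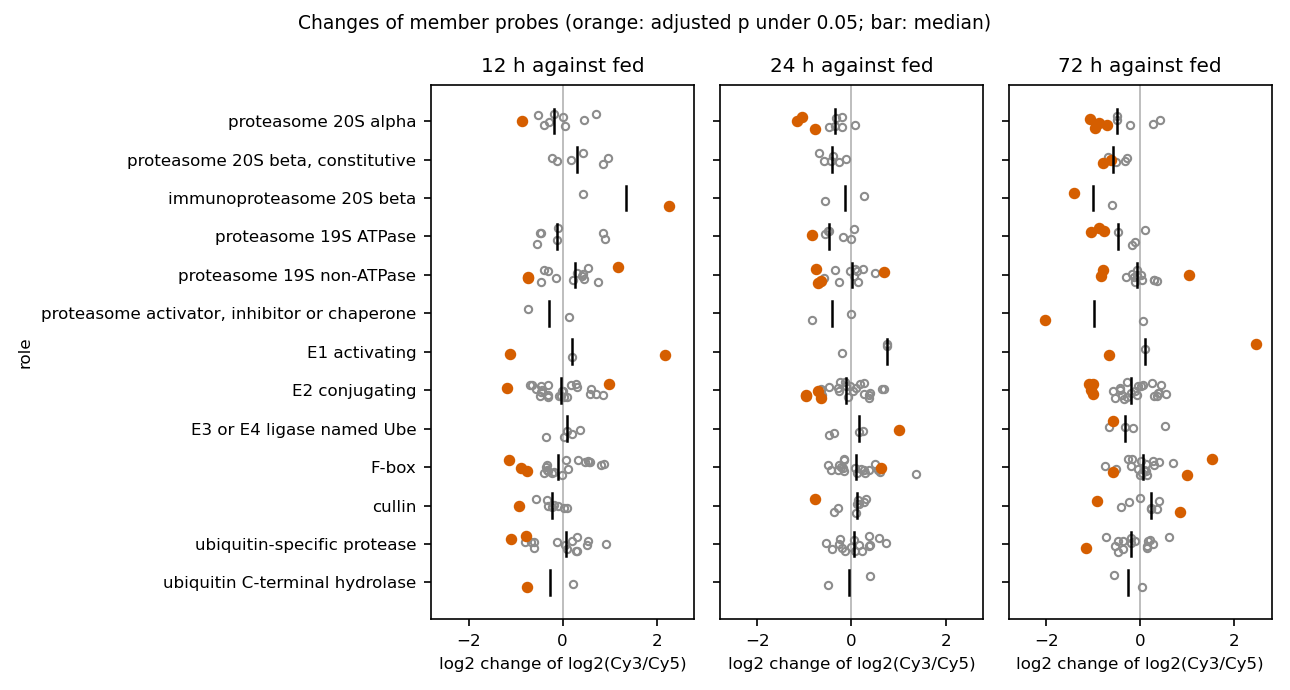
Change of every member probe (points) at 12 h, 24 h and 72 h against fed, in log2, by the role of its gene; filled orange points passed limma's test at an adjusted p under 0.05 and bars are medians. At 72 h, orange points of the 20S alpha, beta and ATPase genes lie to the left of 0, and those of the E1, F-box and cullin genes lie on either side.

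The activating enzymes gave the largest rise. Ube1c (Uba3) is the catalytic subunit of the E1 enzyme for Nedd8, the ubiquitin-like protein that switches cullins on. Its brighter probe (A_65_P14016) was 0.12, 0.33 and -0.36 in the fed pools, -0.88, 0.39 and 1.15 at 12 h, 1.02, 0.32 and 0.9988 at 24 h, then 2.75, 1.88 and 2.82 at 72 h. The 72 h pools lay above those of every other time point, at 2.45 ± 0.41 over fed (5.48-fold, adjusted p = 0.00185). The other probe (A_65_P17561) went the opposite way, from -0.02, -0.28 and 0.08 in the fed pools to -0.73, -0.70 and -0.76 at 72 h (-0.66 ± 0.16, adjusted p = 0.0188), and was also lower at 12 h (-1.12 ± 0.18, n = 2 at 12 h, adjusted p = 0.00462). Of 26 member genes with several probes, 7 differed in call between their probes at 72 h, and in 1, Ube1c, both probes were called in opposite directions. Ube1x (Uba1), the E1 enzyme for ubiquitin itself, was -0.31, -0.49 and -0.68 in the fed pools, 0.54 and 2.82 at 12 h (n = 2), 0.17, 0.43 and 0.15 at 24 h, then -0.43, -0.28 and -0.49 at 72 h. Its rise at 12 h (2.18 ± 0.44, adjusted p = 0.0116) went with a change of -1.65 in the reference and of 0.53 in Cy3, and was 1.04 without 12 h replicate 3 and 3.32 without 12 h replicate 2.

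Of 25 E2 probes, 4 (3 genes) were lower at 72 h and 0 higher, against 5.71% and 4.85% of all probes, with a median of -0.21. Ube2a, an E2 of DNA damage tolerance and histone ubiquitination, was lower by both of its probes. The brighter one was 0.28, -0.04 and 0.45 in the fed pools, -0.15, -0.54 and -0.08 at 12 h, -0.94, -0.43 and -0.81 at 24 h, then -1.13, -0.58 and -0.89 at 72 h. It was lower at 24 h (-0.96 ± 0.20, adjusted p = 0.0128) and at 72 h (-1.10 ± 0.20, adjusted p = 0.00381), without overlap with fed, and the other probe was at -0.66 and -1.005. Its paralog Ube2b was lower at 24 h (-0.71 ± 0.17, adjusted p = 0.0202) and higher again at 72 h than at 24 h (0.64), whereas its other probe was at -0.25 and -0.29 and was not called. Ube2e1 was -0.05, -0.25 and 0.19 in the fed pools, -0.87, -1.25 and -1.55 at 12 h, -1.14, -0.82 and -1.04 at 24 h, then -1.03, -1.08 and -1.17 at 72 h. The fasted pools of Ube2e1 thus all lay below all fed pools, with changes of -1.19 ± 0.19 (adjusted p = 0.00388), -0.96 ± 0.19 (adjusted p = 0.0085) and -1.05 ± 0.19 (adjusted p = 0.00271). In Cy3 alone the 72 h value was -0.69 (adjusted p = 0.0674), and the 12 h call was lost as well.

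Ube2n, which builds the lysine-linked chains of a kind used in signalling rather than degradation, was -0.41, -0.42 and 0.51 in the fed pools, -0.69, -0.87 and -0.87 at 12 h, -0.89, -0.53 and -0.76 at 24 h, then -1.15, -1.06 and -1.13 at 72 h. It fell by 1.01 ± 0.22 at 72 h (adjusted p = 0.00872), by 1 of 3 probes. A near-identical pseudogene, Ube2n-ps1, is also on the array (0.45 ± 0.27), and the sharing of target between these probes was not tested. Ube2c, the E2 of the anaphase-promoting complex, was -0.34, -0.31 and -1.11 in the fed pools, 0.38, 0.01 and 0.80 at 12 h, -0.39, -0.38 and -0.21 at 24 h, then -0.82, -0.56 and -0.70 at 72 h. It was higher at 12 h than in fed intestine (0.99 ± 0.23, adjusted p = 0.0184, not called in Cy3 alone) and lower at 72 h than at 12 h (-1.09). Of 9 markers of proliferating cells, 1 was lower at 12 h and 3 at 72 h (Ccnb2, Cdc2a and Pcna), with a summed Cy3 signal of 2617 to 3929 in fed, 1387 to 3089 at 12 h and 1921 to 2106 at 72 h. Over all probes, 6% were lower at 12 h and 5.71% at 72 h. The part of proliferating cells in the values of Ube2c was not tested.

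Of 34 ligase probes, 3 were lower and 3 higher at 72 h, near the shares of all probes (5.71% and 4.85%), with a median of 0.02. Fbxo18 (Fbh1), a DNA helicase with an F-box, was 0.00, 0.12 and -0.34 in the fed pools, 0.12 and 0.81 at 12 h (n = 2), 0.65, 0.37 and 0.58 at 24 h, then 1.84, 0.94 and 1.55 at 72 h. The 72 h pools were above all others, at 1.52 ± 0.24 over fed (2.86-fold, adjusted p = 0.00185). Fbxl6 was at 1.10, 1.05 and 1.14 at 72 h against 0.17, 0.48 and -0.33 in fed (0.99 ± 0.20, adjusted p = 0.00648), a call that was lost in Cy3 alone (0.45, adjusted p = 0.310). A probe of Fbxo3 was lower (-0.58, adjusted p = 0.0247), whereas the brighter probe of this gene was not called. Fbxo32 (atrogin-1), the F-box protein of muscle wasting, was not well above background on any fed, 12 h or 24 h array, and its value at 72 h was 0.01 ± 0.17. Fbxl10 was higher at 24 h by a probe that was dim in fed pools (0.62 ± 0.16, adjusted p = 0.0287). In Cy3 this probe was at least 3.02-fold higher, while the reference itself rose by 1.22 (log2).

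Of the cullins, Cul4b was 0.40, 0.84 and 0.40 in the fed pools, -0.19, 0.49 and 0.78 at 12 h, 0.32, 0.09 and 0.35 at 24 h, then 1.79, 0.99 and 1.398 at 72 h. It was higher at 72 h than in fed intestine (0.84 ± 0.25, adjusted p = 0.0437) and than at 24 h (1.14). This call was lost without each of 8 arrays in turn, and the other probe of Cul4b was not called against fed. Cul2, the scaffold of the von Hippel-Lindau ligase, was 0.10, -0.21 and 0.23 in the fed pools and -0.96, -0.82 and -0.83 at 72 h (-0.91 ± 0.22, adjusted p = 0.0173), and was also lower at 12 h (-0.93) and 24 h (-0.77). At 12 h, however, its Cy3 signal changed by only -0.03. Rbx1, the RING protein of cullin ligases, fell by 0.95 at 12 h (adjusted p = 0.0300), by 1.23 at 24 h (adjusted p = 0.0109) and by 1.55 at 72 h (adjusted p = 0.00180). Of 24 other ligases and adaptors, 6 were lower and 0 higher at 72 h (Rbx1, Rnf5, Rnf7, Rnf11, Rnf13 and Skp2), with a median of -0.07. Of the 8 genes of the COP9 signalosome, which removes Nedd8 from cullins, 3 were lower and 0 higher at 72 h, namely Cops3 (-0.99), Cops7a (-0.97) and Gps1 (-0.94). Beside the counts of both lists, 5.71% of all probes were lower and 4.85% higher at 72 h.

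Of the ligases with a Ube name, Ube3a, the HECT-type ligase of Angelman syndrome, was lower at 72 h by its brighter probe (-0.58 ± 0.15, adjusted p = 0.0230), with -0.09, 0.17 and 0.16 in the fed pools and -0.54, -0.63 and -0.35 at 72 h. Its other probe was not called. Ube3b was higher at 24 h (1.003 ± 0.21, adjusted p = 0.0125), with 0.61, 0.57 and 0.41 against -0.18, -0.24 and -1.01 in the fed pools, and was back between -0.06 and 0.20 at 72 h.

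Of 18 probes of deubiquitinating enzymes, 0 were higher and 1 lower at 72 h, near the shares of all probes (4.85% and 5.71%), and 0 were called at 24 h. The 1 was Usp18, an interferon-inducible protease, with 0.01, -0.29 and 0.81 in the fed pools, -0.34, -0.58 and -0.34 at 12 h, -0.39, -0.04 and -0.68 at 24 h, then -0.993, -0.941 and -0.9996 at 72 h. All 72 h pools lay below every other pool, at -1.16 ± 0.24 against fed (2.23-fold, adjusted p = 0.00706). At 12 h 3 probes of this class were lower, among them Usp16 (-1.10 ± 0.24, adjusted p = 0.0138), a histone deubiquitinase, in which the reference changed by 0.91 and Cy3 by -0.19. Another was Uchl5, the hydrolase that docks on the 19S regulator (-0.75 ± 0.20, n = 2 at 12 h, adjusted p = 0.0332). The 2 probes of Usp14, the other protease that docks there, were at -0.48 and -0.36 at 72 h and did not pass the test.

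The other 32 enzyme genes (42 probes) held 0 calls at 72 h and at 24 h. The rule for naming took up the enzymes called at these times, so the 0 is not a result about the others. At 12 h, where only the largest called changes were named, 3 of the 42 probes were lower, against 6% of all probes. At 72 h the values of these 32 genes lay between -0.76 (Fbxo25, adjusted p = 0.289) and 0.70 (Fbxw7, adjusted p = 0.147).

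**Figure D5:**
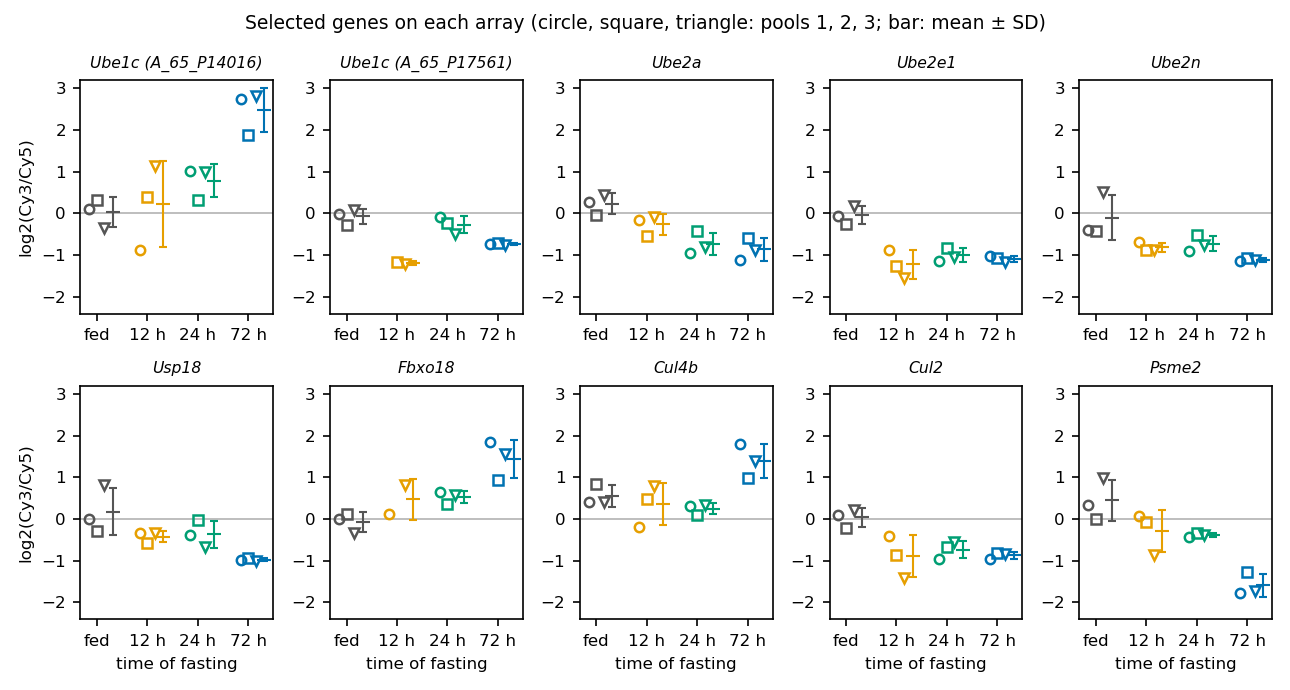
Log2(Cy3/Cy5) of 9 genes on each array by time of fasting, with circle, square and triangle for pools 1, 2 and 3 and a bar for mean ± SD (n = 3, or 2 where a value is missing). The probes of Ube1c part at 72 h, Fbxo18 and Cul4b are highest at 72 h, and Psme2 and Usp18 are lowest there.

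Of 11 ubiquitin and ubiquitin-like genes, 1 was higher at 72 h and 4 were lower (Isg15, Smt3h2, Ubl1 and Ubl3). Over all probes, 4.85% were higher and 5.71% lower at 72 h. Rps27a, which encodes ubiquitin fused to a ribosomal protein, did not pass the test (-0.52 ± 0.21, adjusted p = 0.137). Among 9 shuttle and p97 cofactor genes 1, Ubap1, was higher at 72 h (0.68, adjusted p = 0.0221), a value that was -0.32 in Cy3 alone. Of 5 transcription factors known to act on proteasome genes, 1 was higher and 1 lower at 72 h. Among them, Nfe2l1 (Nrf1) was at 0.15 ± 0.21 and Nfe2l2 (Nrf2) at -0.98 ± 0.33 (adjusted p = 0.0726) at 72 h, and Foxo1, which acts on them in muscle, was the higher one (0.85 ± 0.23, adjusted p = 0.0311).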

How the data were processed

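RNA was measured on 12 Agilent 2-colour arrays. The authors deposited Feature Extraction output, in which both channels have a foreground and a background intensity (medians over a spot's pixels) that are not normalized. Flags and a log10 ratio of the channels were also deposited, and that ratio served only as an alternative. In it, 30 to 421 cells per array had a displaced decimal point and were scaled back, and 4 to 12 were left out.

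Background correction used normexp with an offset of 50, followed by quantile normalization over all 24 channels. Of 21446 spots, 1075 controls and 91 retired ones were left out, as were outlier spots (0.212% to 5.42% per array), but not saturated ones. Replicate spots were averaged. Log2(Cy3/Cy5) of all probes was fitted per time point over 12 arrays by limma (version 3.58.1, R 4.3.3), with eBayes moderation. The study's analyses of variance (outliers, Split-Factor) were not repeated. The fit was tested on simulated data. For a probe that all arrays of a time point leave near background, a bound is given, from Cy3 after loess and Aquantile normalization and open to dye bias. The packages data.table (version 1.17.8), pandas 2.3.3 and matplotlib 3.10.9 (Python 3.11.15) were also used.

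Named are all proteasome genes, enzymes called at 72 h against fed or 24 h against 12 h with pools that do not overlap, the 4 largest rises and falls called at 12 h and at 24 h, and the brightest enzyme of each role. A few genes are not reported here. A gene is given by its brightest probe, with others where they differ. Members, lists and motifs were chosen with earlier results of these data known. Besides leaving out each array, 11 alternatives were run, covering background, normalization, ratio, channel, filter on dim probes, arrays in the fit, pool block, variance and thresholds. The signal over background and the number of arrays limit the precision.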

Additional observations from a re-analysis of the deposited data

Results flagged for a closer look

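Differences between time points of fasting were tested directly in the same limma fit, and the 20 given here passed at an adjusted p under 0.05 with pools that do not overlap. Each is a difference of log2(Cy3/Cy5), with 2 pools at 12 h for Psmb10, Psmb8, Psma5, Psmc2, Ube1x and Fbxo18, and the 72 h arrays differ from those of 12 h and 24 h in file format. From 12 h to 72 h, Psmb10 changed by -2.84, Psmb8 by -1.85, Psme2 by -1.30, Psma5 by -0.964, Psmb4 by -0.954, Psmd11 by -0.833, Psma1 by -0.776 and Psmc2 by -0.768. Over the same interval, Ube1x changed by -2.08 and Ube2c by -1.09, whereas Ube1c changed by 2.26, Cul4b by 1.03 and Fbxo18 by 0.974. Single 12 h pools moved 5 of these by over 1.5 times. Without 12 h replicate 3, Psmb10 was at -1.61, Psma5 at -0.62, Psmb8 at -1.04 and Ube1x at -0.94. Without 12 h replicate 1, Fbxo18 was at 0.63. Each of these fits left 1 pool at 12 h for the gene, so only its value is given. Psma1 was no longer called without 12 h replicate 3 or without any 1 of the 72 h arrays. The call of Psmc2 was kept under 3 of 11 other settings of the processing. That of Psmc3ip from 12 h to 24 h was kept under 6. Of the 20 differences, only that of Ube1c from 12 h to 72 h was called under every setting and without each array in turn. From 24 h to 72 h, Psme2 changed by -1.20, Ube1c by 1.70, Cul4b by 1.14, Fbxo18 by 0.91, Psmc3ip by 0.654 and Ube2b by 0.64. From 12 h to 24 h, within a file format, Psmc3ip changed by -0.736. The other probes of 3 genes went the opposite way without a call, at -0.29 for Ube2b, -0.458 for Ube1c and -0.460 for Psmc3ip from 24 h to 72 h, and at 0.54 for Psmc3ip from 12 h to 24 h. Part of the 12 h values rest on the reference channel, which changed by -1.995 for Psmb10, -1.65 for Ube1x and -1.04 for Psmd11 at 12 h against fed. The fall of Psmd11 from 12 h to 72 h was not seen in Cy3 alone, where its value was 0.13.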

How the results depend on the processing

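Called proteasome and enzyme probes numbered 5 and 11 at 12 h, 8 and 7 at 24 h, 14 and 13 at 72 h, then 1 and 1 for 24 h against 12 h. Values that moved follow, with causes not tested. Without background correction, 3 proteasome probes were called at 12 h and 5 at 24 h, then 2 enzyme probes at 24 h. Loess and Aquantile gave 15 enzyme probes at 24 h and 20 at 72 h. Channels centred on their median gave 9 proteasome and 17 enzyme probes at 12 h, 13 enzyme probes at 24 h, 0 and 0 for 24 h against 12 h (4 and 21 at an unadjusted p under 0.05, limma), a difference between the medians of proteasome and enzymes of -0.074 at 12 h (0.064 in the reported fit), and 0.90 for Psme1 at 24 h, a reversal. This centring moved the median of all probes to 0.157 at 24 h. The log ratio of Feature Extraction gave 2 proteasome probes at 12 h, 9 at 72 h, and 0 and 0 for 24 h against 12 h (9 and 16 unadjusted). Cy3 alone gave 2 and 5 at 12 h, 16 enzyme probes at 24 h, 3 and 7 for 24 h against 12 h, and -0.068 for the difference between the medians at 24 h. In it, Fbxl6 reversed to -1.04 at 12 h and -1.17 at 24 h. Fits of only the arrays compared gave 0 and 0 at 12 h (8 and 26 unadjusted), 15 enzyme probes at 24 h, 20 at 72 h, and 0 and 0 for 24 h against 12 h (10 and 20 unadjusted). Without variance moderation, 3 and 5 were called at 12 h, 5 proteasome probes at 24 h, 7 at 72 h and 0 for 24 h against 12 h (11 unadjusted). The study's thresholds (unadjusted p under 0.01 and 1.4-fold) gave 20 enzyme probes at 12 h, and 7 and 9 for 24 h against 12 h. Without Psmc3ip, chosen after seeing the data, 0 proteasome probes differed between 24 h and 12 h (15 unadjusted). Of the named genes, 16 differed between time points of fasting in at least 1 comparison, 6 with median centring, 5 without moderation and 27 at the study's thresholds.

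Pool numbers did not pair the arrays. Deviations of same-numbered arrays correlated at -0.286 to 0.128 (18 pairs, 2 over 0.1). With the replicate block, 4 proteasome and 10 enzyme probes were called at 12 h, 6 and 5 at 24 h, 12 and 12 at 72 h, then 1 and 0 for 24 h against 12 h (24 enzyme probes unadjusted).

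Leaving out each array in turn gave 1 (without fed replicate 3) to 12 (without 12 h replicate 1) proteasome and 3 to 27 enzyme probes (without the same arrays) at 12 h. At 24 h it gave 2 (without fed replicate 1) to 13 (without 12 h replicate 3) and 2 to 17, at 72 h 4 (without 72 h replicate 1) to 15 and 8 to 22 (without 12 h replicate 3), and for 24 h against 12 h 0 to 6 and 0 to 7 (without 12 h replicate 1). The difference between the medians ranged from 0.0077 to 0.18 at 12 h, -0.45 to -0.29 at 24 h and -0.45 to -0.17 at 72 h, and the genes that differed between fasted time points from 6 (without 72 h replicate 1 or 3) to 23. Without fed replicate 3 and 12 h replicate 3, chosen after seeing the data, the counts were 3 and 4 at 12 h, 16 and 12 at 24 h, 19 and 20 at 72 h, then 3 and 3 for 24 h against 12 h. The difference between the medians was then -0.050 at 12 h and -0.45 at 72 h, 27 genes differed between fasted time points, and Psmd13 turned from 0.06 to -0.61 at 24 h (-0.61 to 0.49 without each array in turn).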
